A study of Sus scrofa with 12 samples.

Results

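The longissimus dorsi (LD) muscle was compared with the back subcutaneous fat of Dingyuan pigs, a Chinese breed, on the level of mRNA. The comparison took all 6 LD muscle libraries and all 6 back fat libraries of the series, 12 of 12, by the tissue given in their labels, and pooled the pigs with high and low fat content within each tissue. The back fat came from pigs with low or high backfat thickness (LBF and HBF, 3 libraries each), and the LD muscle from pigs with low or high intramuscular fat (LIMF and HIMF, 3 libraries each). All pigs were labelled 300 days old, and the study describes them as unmated sows kept under the same feeding. Libraries are named here by group and replicate, as in LBF3. None of the sources used ties a back fat library to the LD muscle library of the same pig, so the 12 libraries were treated as independent, and each p-value measures the spread between these libraries only. Whether both tissues were extracted and sequenced together is not given either, so a difference in handling cannot be told apart from the tissue.

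The values are FPKM, the fragments of a gene per kilobase of transcript scaled to the total of mapped fragments in the library, which allows levels to be set side by side between genes. Of 31903 gene identifiers, 15965 had a mean above 0.05 FPKM over the 12 libraries and were tested, 12667 of them with a gene symbol. Differences are given as LD muscle minus back fat on log2(FPKM + 0.1), on which the pseudocount shrinks the differences of weakly expressed genes. A gene was called at an adjusted p under 0.01 (limma, Benjamini-Hochberg) and an absolute log2 difference of at least 1, a 2-fold change. In a whole tissue, fewer cells of a type and less RNA per cell cannot be told apart.

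The LD muscle is made of long multinucleated fibres whose sarcomeres, built from myosin and actin filaments, shorten when the sarcoplasmic reticulum releases calcium. The fibres draw ATP from creatine phosphate, from glycogen through glycolysis, and from mitochondria, and slow and fast fibres carry different forms of the same contractile proteins. Subcutaneous fat stores triglyceride in the lipid droplet of white adipocytes, makes fatty acids from glucose in the pig, secretes hormones such as leptin and adiponectin, and holds many fibroblasts, vessel cells and macrophages between the adipocytes.

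The labelled tissues were checked against marker genes. Of 17 muscle fibre markers listed, 11 were found by symbol, and MYH1, MYH2, MYH4, MYH7, MB and RYR1 were not. Of the 11 found, 9 were called higher in LD muscle and 0 in back fat, with ACTA1 and CKM not called. Of 11 adipocyte markers found, 10 were called higher in back fat, with GPD1 not called. Over the 11 adipocyte markers, the median level in an LD muscle library was 0.301 to 0.946% of the mean level in back fat. Muscle genes were not equally low in the 6 back fat libraries. Over the 57 sarcomere genes found, the median level was 0.561% of the mean level in LD muscle in LBF3 and 0.0282 to 0.0468% in the other 5. In LBF3 the light chain gene MYL11 stood at 111 FPKM and ACTA1 at 107 FPKM. The Y-linked gene EIF1AY stood at 16.9 FPKM in HBF3 and 26.9 FPKM in LIMF1, at 0.311 FPKM in LBF3, and was listed at 0 in the other 9 libraries, although the pigs are described as sows. Leaving out HBF3 and LIMF1 gave 1473 genes higher in LD muscle and 7207 higher in back fat, and leaving out LBF3 gave 1453 and 7446.

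Some abundant genes were listed at exactly 0 in part of the libraries. There were 21 such values over 9 genes, 17 of them in LD muscle and 4 in back fat, counted where the other values of the same tissue had a median above 100 FPKM. ACTA1, the actin of skeletal muscle, was listed at 0 in LIMF1, LIMF2, LIMF3 and HIMF1 and stood at 9637 and 8025 FPKM in HIMF2 and HIMF3. CKM, the muscle creatine kinase, was listed at 0 in LIMF2 and LIMF3, and GAPDH and ALDOA, 2 enzymes of glycolysis, in LIMF2. With these values as deposited, none of the 4 genes was called. With them taken as missing, an alternative chosen after seeing the data, the log2 difference was 13.20 for ACTA1, 12.92 for CKM, 3.96 for GAPDH and 9.33 for ALDOA, with adjusted p of 0.000181, 6.18e-07, 1.06e-08 and 2.22e-09.

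More genes were called higher in back fat than in LD muscle. Of 15965 genes tested, 1472 (9.22%) were called higher in LD muscle and 7502 (47%) higher in back fat, 56.2% in all. All 6 LD muscle libraries lay above all 6 back fat libraries for 10.4% of the genes, and the reverse held for 49.3%. Differences of at least 5 on the log2 scale, or 32-fold, were called for 244 genes in LD muscle and 200 in back fat. After median-of-ratios scaling these counts were 275 and 118, and after quantile normalization 285 and 92. A gene above 1 FPKM in every library of a tissue was more frequent in back fat, with 10319 genes, than in LD muscle, with 7980. The median log2 difference over all genes tested was -0.97 with the values as deposited, -0.54 after median-of-ratios scaling and -0.06 after quantile normalization. The share of calls that were higher in LD muscle was 16.4% as deposited, 29.4% after median-of-ratios scaling and 47.2% after quantile normalization. Median-of-ratios scaling called 2285 genes (14.3%) higher in LD muscle and 5477 (34.3%) higher in back fat, and quantile normalization 3184 (19.9%) and 3562 (22.3%). Of the calls, 1471 higher in LD muscle and 3442 higher in back fat were made under each of these 3 scalings, and 0 genes were called in opposite directions by any 2 of them. Differences below are those with the values as deposited, and a list is read against the shares of 9.22% and 47% and the median of -0.97.

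**Figure D1:**
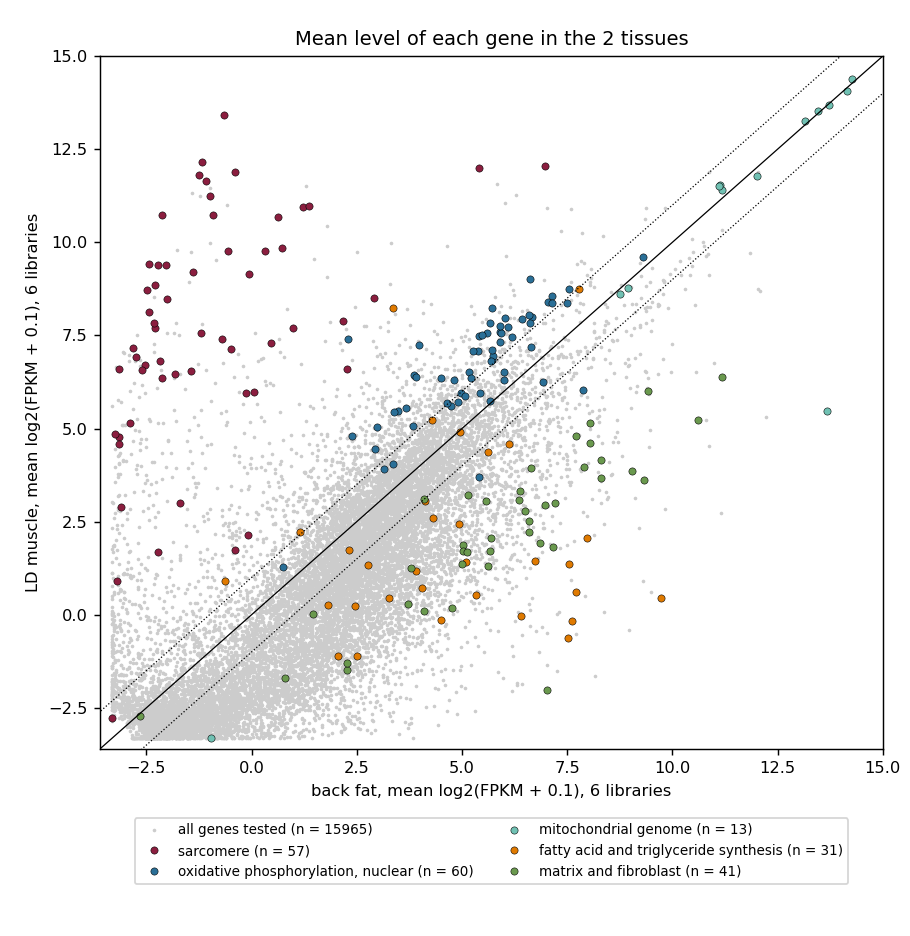
Mean log2(FPKM + 0.1) of each of the 15965 genes tested in the 6 back fat libraries (horizontal axis) and the 6 LD muscle libraries (vertical axis), with the members of 5 gene lists in colour. The solid line marks equal levels and the dotted lines a difference of 1, and the sarcomere genes stand far above the line, the genes of fatty acid synthesis and matrix mostly below it and 11 of 13 genes of the mitochondrial genome between the dotted lines.

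The contractile apparatus had the largest median difference of the 23 lists. Of 57 sarcomere genes found, from 68 listed, 55 were called higher in LD muscle and 0 in back fat, with a median log2 difference of 9.17. The genes not called were ACTA1, with its values at 0, and MYL10, a light chain gene listed at 0 in 11 libraries and at 0.878 FPKM in LIMF3. The sarcomere genes found, without the myosin heavy chains MYH1, MYH2, MYH4 and MYH7, together took 11.6 to 15.7% of the summed FPKM in LD muscle. In back fat they took 0.0318 to 0.165%, the highest share being that of LBF3. The count of 55 called genes was the same without LBF3 and without HBF3 and LIMF1.

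Thin filament regulators and myosin light chains were among the 10 largest differences toward LD muscle. MYL11, the regulatory light chain of fast fibres, stood between 7319.7 and 16876 FPKM (median 10064) in LD muscle and at 0.101, 0.38 and 111 FPKM in LBF 1 to 3 and 0, 0.187 and 0.105 FPKM in HBF 1 to 3. LBF3 was thus far above the other back fat libraries and still far below every LD muscle library (log2 difference 14.08, SE 1.32, adjusted p = 2.73e-07, and 15.57 without LBF3). MYL1, an essential light chain of fast fibres (chromosome 15, 113038083 to 113051315 of Sscrofa11.1 in the RefSeq annotation), stood between 3285 and 6680.4 FPKM (median 4541) in LD muscle and at 0.155, 0.197 and 43.4 FPKM in LBF 1 to 3 and 0, 0.0223 and 0.0826 FPKM in HBF 1 to 3 (log2 difference 13.34, SE 1.17, adjusted p = 1.39e-07). TNNT3, the fast troponin T that anchors the troponin complex to tropomyosin, stood between 2572 and 4567 FPKM (median 3702) in LD muscle and between 0.0278 and 35 FPKM (median 0.0948) in back fat (log2 difference 13.06, SE 1.11, adjusted p = 1.08e-07). The other 2 parts of the fast troponin complex followed. TNNI2, the inhibitory subunit, had a log2 difference of 12.28 (SE 1.05) and TNNC2, the calcium-binding subunit, of 12.22 (SE 1.01). MYOZ1, a protein of the Z-disc that binds calcineurin, stood between 1048 and 2273 FPKM (median 1698) in LD muscle and at 0.0221, 0 and 8.15 FPKM in LBF 1 to 3 and 0.0193, 0.0203 and 0 FPKM in HBF 1 to 3 (log2 difference 12.87, SE 0.90, adjusted p = 1.56e-08).

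Genes of slow fibres also separated the tissues fully. MYL2, the slow regulatory light chain, stood between 1002 and 10041 FPKM (median 3328) in LD muscle and at 0.589, 0.0748 and 6.56 FPKM in LBF 1 to 3 and 0, 1.33 and 0 FPKM in HBF 1 to 3 (log2 difference 12.74, SE 0.95, adjusted p = 2.7e-08). TNNI1, the slow troponin I, stood between 341 and 2182 FPKM (median 596) in LD muscle and was listed at 0 in 4 of 6 back fat libraries, with 0.0419 FPKM in LBF2 and 2.75 in LBF3 (log2 difference 11.85, SE 0.76, adjusted p = 6.04e-09). The tropomyosins, which cover the actin filament, were present in both tissues at lower contrast. TPM1 stood between 2175 and 6486 FPKM (median 4886) in LD muscle and between 83.6 and 174 FPKM (median 130.0) in back fat (log2 difference 5.08, SE 0.28, adjusted p = 1.19e-09), and TPM2 between 2923 and 6126 FPKM (median 3909.6) in LD muscle and between 33.1 and 81.3 FPKM (median 36.5) in back fat (log2 difference 6.59, SE 0.24, adjusted p = 4.48e-11). Tropomyosin genes are also used by the smooth muscle cells and fibroblasts of other tissues.

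**Figure D2:**
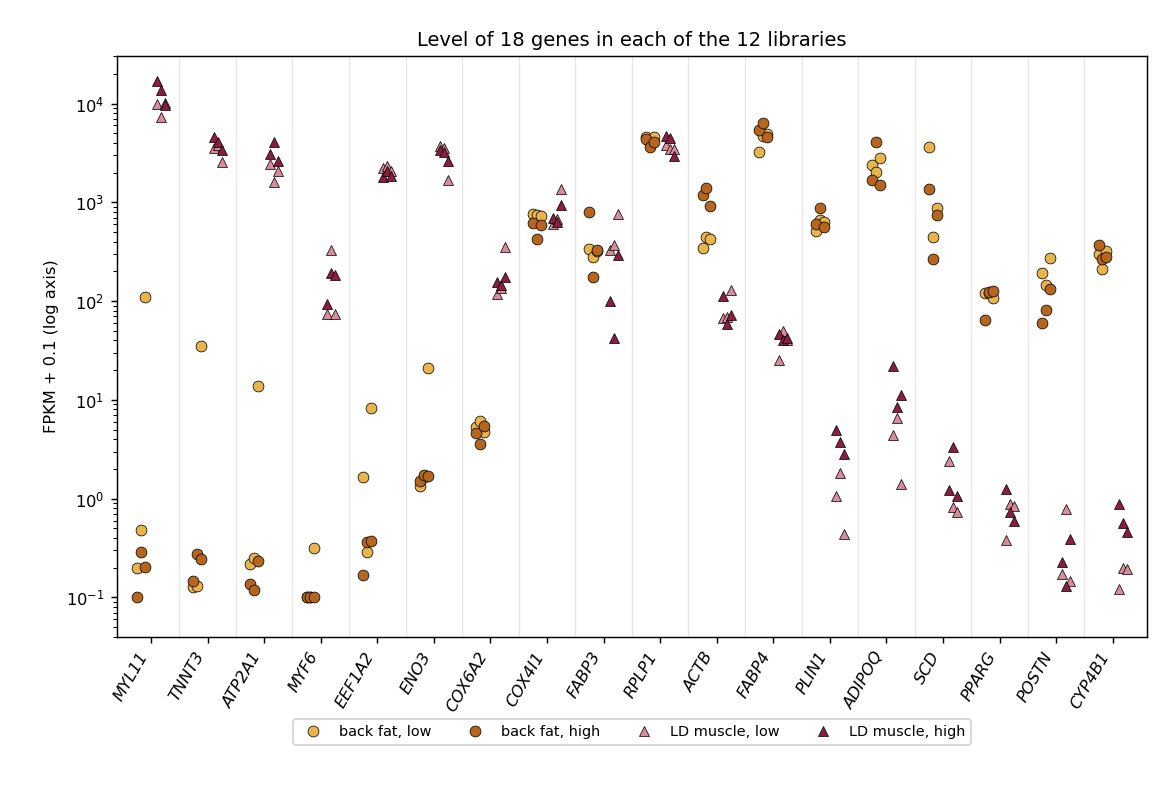
FPKM + 0.1 (log axis) of 18 genes in each library, with back fat as circles, LD muscle as triangles, and the low and high groups in lighter and darker colours. From left to right the genes pass from muscle genes, with LBF3 as the highest circle for MYL11 at 111 FPKM, over genes whose libraries overlap, such as COX4I1 and FABP3, to genes of fat and of its matrix, such as ADIPOQ at 1498 to 4071 FPKM in back fat.

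Calcium handling and the excitable membrane of the fibre followed the sarcomere. Of 31 genes found, from 43 listed, 29 were called higher in LD muscle and 0 in back fat, with a median of 6.65. ATP2A1, the calcium pump of the sarcoplasmic reticulum in fast fibres (chromosome 3, 18545064 to 18568312), stood between 1610.5 and 4089.7 FPKM (median 2552) in LD muscle and between 0.0184 and 13.7 FPKM (median 0.126) in back fat (log2 difference 12.73, SE 0.92, adjusted p = 2.11e-08). SLN, or sarcolipin, a small membrane peptide that inhibits this pump, stood between 1548 and 3648 FPKM (median 2649.8) in LD muscle and between 0.0348 and 9.51 FPKM (median 0.175) in back fat (log2 difference 12.47, SE 0.81, adjusted p = 6.98e-09). The pump gene ATP2A2, used by slow fibres and at low level by most cells, had a smaller difference, with 103 to 832 FPKM (median 215) in LD muscle and 8.03 to 10.5 FPKM (median 9.54) in back fat (log2 difference 4.61, SE 0.38, adjusted p = 7.74e-08).

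All 20 tested myogenic regulators, from 24 listed, were called higher in LD muscle, with a median of 3.64. MYF6, the factor of the MyoD family that is highest in mature fibres, stood between 73.1 and 326 FPKM (median 139) in LD muscle, at 0.218 FPKM in LBF3, and was listed at 0 in the other 5 back fat libraries (adjusted p = 7.29e-11). VGLL2, a cofactor of TEAD transcription factors in muscle, stood between 60.9 and 192 FPKM (median 116) in LD muscle and at 0, 0.125 and 0.262 FPKM in LBF 1 to 3 and 0.0274, 0 and 0.0606 FPKM in HBF 1 to 3 (log2 difference 9.49, SE 0.35, adjusted p = 4.67e-11). MEF2D, a factor with a wider range of tissues, differed less, between 33.2 and 71.3 FPKM (median 40.2) in LD muscle and between 11.8 and 21 FPKM (median 15.8) in back fat (log2 difference 1.53, SE 0.22, adjusted p = 1.76e-05). PAX7 and MYF5, which mark satellite cells, the stem cells of muscle, were low in LD muscle at 0.349 to 0.987 FPKM (median 0.72) and 0.598 to 1.08 FPKM (median 0.808), and were listed at 0 in 4 and 5 of the 6 back fat libraries, with at most 0.0134 and 0.0221 FPKM in the rest. All 4 tested satellite cell markers were called higher in LD muscle.

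Genes of glycogen breakdown and glycolysis were called in both directions. Of 39 genes found, from 43 listed, 22 were called higher in LD muscle and 10 higher in back fat, with a median of 2.02. PYGM, the muscle glycogen phosphorylase that releases glucose 1-phosphate, stood between 1887 and 3636 FPKM (median 3254) in LD muscle and between 44.2 and 63.5 FPKM (median 59.6) in back fat (log2 difference 5.72, SE 0.17, adjusted p = 9.98e-12). PFKM, the muscle phosphofructokinase that commits sugar to glycolysis (chromosome 5, 78475473 to 78525052), stood between 413 and 1297 FPKM (median 908) in LD muscle and between 3.86 and 9.13 FPKM (median 5.06) in back fat (log2 difference 7.24, SE 0.29, adjusted p = 7.64e-11). Further down the pathway, PGAM2, the muscle phosphoglycerate mutase, stood between 404 and 999 FPKM (median 834) in LD muscle and between 0.151 and 4.04 FPKM (median 0.295) in back fat (log2 difference 10.36, SE 0.55, adjusted p = 9.74e-10), with LBF3 the highest back fat library. ENO3, the muscle enolase, stood between 1679.8 and 3752 FPKM (median 3319.8) in LD muscle and between 1.25 and 20.8 FPKM (median 1.58) in back fat (log2 difference 10.24, SE 0.56, adjusted p = 1.32e-09), again with LBF3 the highest back fat library. LDHA, which turns pyruvate into lactate, stood between 1286 and 4505 FPKM (median 2660.3) in LD muscle and between 41.8 and 109 FPKM (median 86.8) in back fat (log2 difference 5.01, SE 0.31, adjusted p = 4.11e-09). The largest difference in the other direction was that of HK1, the hexokinase of most tissues, between 26 and 43.9 FPKM (median 33.2) in back fat and between 1.42 and 2.16 FPKM (median 1.67) in LD muscle (log2 difference -4.22, SE 0.16, adjusted p = 4.68e-11). HK2, the hexokinase that insulin induces, overlapped between the tissues with 4.48 to 19.2 FPKM (median 10.4) in LD muscle and 4.78 to 10.4 FPKM (median 9.28) in back fat (log2 difference 0.23, adjusted p = 0.531).

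GAPDH and ALDOA, which were not called with their values at 0, stood in the other 5 LD muscle libraries at 10393 to 17506 and 3535 to 8036 FPKM. In back fat GAPDH stood at 532 to 1168 FPKM (median 993) and ALDOA at 5.77 to 52.2 FPKM (median 7.2), with LBF3 the highest for both.

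The list of genes that buffer ATP through creatine phosphate and purine nucleotides also holds the carbonic anhydrase CA3 and the carrier SLC25A4. Of its 16 genes found, 10 were called higher in LD muscle and 5 higher in back fat. CKMT2, the creatine kinase of muscle mitochondria, stood between 315 and 1097 FPKM (median 416) in LD muscle and between 0.0759 and 2.6 FPKM (median 0.145) in back fat (log2 difference 10.43, SE 0.57, adjusted p = 1.26e-09). AMPD1, the muscle AMP deaminase, stood between 97.5 and 288 FPKM (median 226) in LD muscle and between 0.0415 and 0.735 FPKM (median 0.155) in back fat (log2 difference 9.42, SE 0.39, adjusted p = 9.67e-11). CKM stood at 8636, 0 and 0 FPKM in LIMF 1 to 3 and 9288, 8175 and 7172 FPKM in HIMF 1 to 3, and at 0.315, 0.392 and 47.7 FPKM in LBF 1 to 3 and 0.207, 0.569 and 0.632 FPKM in HBF 1 to 3, so that the 4 LD muscle libraries above 0 were far above back fat. CA3, a carbonic anhydrase abundant in slow fibres and in adipocytes, had a smaller difference and overlapped, between 584 and 2548 FPKM (median 1217) in LD muscle and between 50.3 and 1013 FPKM (median 216) in back fat (log2 difference 2.41, SE 0.60, adjusted p = 0.00224).

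Most nuclear genes of oxidative phosphorylation were called higher in LD muscle. Of 60 genes found, from 78 listed, 43 were called higher in LD muscle and 2 higher in back fat, with a median of 1.37 and single genes from -1.84 to 5.09, and 46 had all LD muscle libraries above all back fat libraries. After median-of-ratios scaling 54 were called higher in LD muscle, and after quantile normalization 50, with 2 in back fat under both. The count higher in LD muscle was 43 without LBF3 and 45 without HBF3 and LIMF1. By complex, 19 of 29 genes of complex I, 3 of 4 of complex II, 7 of 7 of complex III, 6 of 10 of complex IV and 7 of 9 of complex V were called higher in LD muscle, with medians of 1.33, 1.20, 1.83, 1.20 and 1.22. The genes called higher in back fat were COX6A1 and COX8A, both of complex IV and both with a second form in muscle, with log2 differences of -1.69 and -1.84. CYCS, the cytochrome c that carries electrons between complexes III and IV, stood between 123 and 225 FPKM (median 143) in LD muscle and between 14 and 17.7 FPKM (median 15.7) in back fat (log2 difference 3.27, SE 0.15, adjusted p = 2.56e-10). COX5A, of complex IV, stood between 377 and 854 FPKM (median 479.5) in LD muscle and between 84.6 and 119 FPKM (median 97.1) in back fat (log2 difference 2.40, SE 0.19, adjusted p = 6.1e-08). COX4I1, the most abundant nuclear gene of the list, overlapped, between 598 and 1372 FPKM (median 683) in LD muscle and between 425 and 763 FPKM (median 671) in back fat (log2 difference 0.31, adjusted p = 0.225).

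The 13 protein genes of the mitochondrial genome took 21 to 34.7% of the summed FPKM in LD muscle and 20.5 to 37.1% in back fat, and 0 of 13 were called in either direction in limma. At an unadjusted p under 0.05 there was 1, COX1, whose log2 difference of -8.20 (adjusted p = 0.0387) rested on its values at 0 and became 0.60 with them taken as missing. COX2 stood between 13084 and 37423 FPKM (median 20714) in LD muscle and between 14399 and 23278 FPKM (median 20618) in back fat (log2 difference 0.12, -0.14 after quantile normalization, adjusted p = 0.764). The median over the 13 genes was -0.04, with 0.52 after median-of-ratios scaling and -0.28 after quantile normalization. COX3 and ATP6 were listed at 0 in LBF2, LBF3, LIMF2 and LIMF3, and COX1 in LIMF2, LIMF3 and HIMF3. The lowest shares of the summed FPKM were those of LBF3 and LIMF3, and without these 3 genes the other 10 took 14.8 to 25.4% of the remaining FPKM in back fat and 15.4 to 32.5% in LD muscle.

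The citric acid cycle list also holds entry reactions and related enzymes such as the cytosolic IDH1. Of its 26 genes, 14 were called higher in LD muscle and 5 in back fat, with a median of 1.14. MDH2, the mitochondrial malate dehydrogenase, stood between 269 and 587 FPKM (median 354) in LD muscle and between 41.3 and 80.5 FPKM (median 54.8) in back fat (log2 difference 2.74, SE 0.22, adjusted p = 5.27e-08). PC, the pyruvate carboxylase that supplies oxaloacetate for fatty acid synthesis (chromosome 2, 5566608 to 5587797), showed the opposite and the largest difference of the list, between 417 and 759 FPKM (median 549) in back fat and between 4.06 and 12.6 FPKM (median 9.69) in LD muscle (log2 difference -5.99, SE 0.24, adjusted p = 7.14e-11). IDH1, a cytosolic source of NADPH, followed with 118 to 207 FPKM (median 163) in back fat and 2.98 to 9.04 FPKM (median 5.56) in LD muscle (log2 difference -4.87, SE 0.22, adjusted p = 1.96e-10). PDK4, the kinase that shuts pyruvate dehydrogenase, overlapped, between 234 and 1519.8 FPKM (median 546) in LD muscle and between 165 and 389 FPKM (median 281) in back fat (log2 difference 1.13, adjusted p = 0.0173), and was called higher in LD muscle after median-of-ratios scaling, at 1.70. The largest difference toward LD muscle was that of IDH2, the mitochondrial isocitrate dehydrogenase that makes NADPH, between 152 and 326 FPKM (median 212) in LD muscle and between 11.6 and 15.8 FPKM (median 13.4) in back fat (log2 difference 4.01, SE 0.19, adjusted p = 2.56e-10).

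Of 33 tested genes of fatty acid oxidation, 11 were called higher in LD muscle and 7 in back fat, with a median of 0.40. The counts were 16 and 4 after median-of-ratios scaling and 14 and 4 after quantile normalization, with medians of 0.96 and 0.67. PPARGC1A, a coactivator that raises mitochondrial gene expression, stood between 2.98 and 32 FPKM (median 6.15) in LD muscle and at 0.0109, 0.0801 and 0.262 FPKM in LBF 1 to 3 and 0.0227, 0.304 and 0 FPKM in HBF 1 to 3 (log2 difference 5.33, SE 0.52, adjusted p = 3.99e-07). LIMF1 was the highest LD muscle library for it at 32 FPKM and the next stood at 7.06. ACSL5, an enzyme that activates fatty acids, was the list's largest difference toward back fat, between 7.76 and 15.2 FPKM (median 12.9) in back fat and between 0.724 and 1.53 FPKM (median 1.23) in LD muscle (log2 difference -3.32, SE 0.21, adjusted p = 5.81e-09). FABP3, the fatty acid binding protein named for heart and muscle, did not separate the tissues, with 175 to 802 FPKM (median 328) in back fat and 42.4 to 758 FPKM (median 312) in LD muscle (log2 difference -0.60, adjusted p = 0.355). In the low groups alone its log2 difference was 0.53. UCP3, a mitochondrial carrier of muscle and fat, stood between 61.8 and 178 FPKM (median 91.1) in LD muscle and between 55.6 and 120.0 FPKM (median 75.2) in back fat (log2 difference 0.34, -0.21 in the high groups alone, adjusted p = 0.259).

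**Figure D3:**
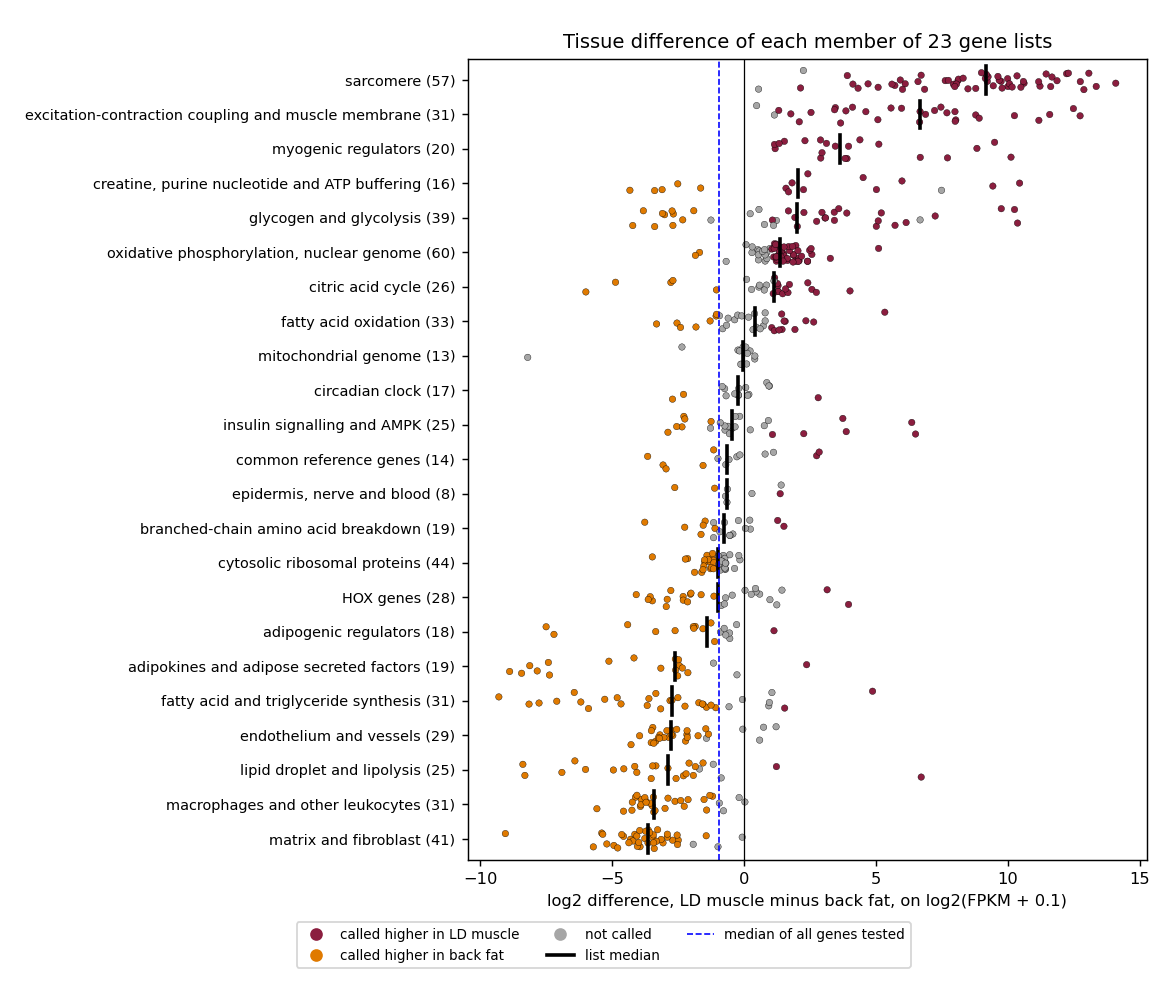
Log2 difference (LD muscle minus back fat) of each member of 23 gene lists, ordered by the list median (black bar), with the number of members tested in brackets and the median of all genes tested, -0.97, as a dashed line. Sarcomere genes reach a difference of 14.08 and the medians of matrix, leukocytes, lipid droplets and vessels lie to the left of the dashed line, with single members to its right, while the lists of clock, insulin signalling and reference genes scatter around it, with medians whose sign changes with scaling for the first 2.

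Most genes for the synthesis of fatty acids and triglycerides were called higher in back fat. Of 31 genes found, from 33 listed, 24 were called higher in back fat and 2 in LD muscle, with a median of -2.73. The count higher in back fat was 24 without LBF3 and 24 without HBF3 and LIMF1, and the counts in back fat and LD muscle were 20 and 5 after median-of-ratios scaling and 19 and 5 after quantile normalization. SCD, the desaturase that makes oleic acid and the most abundant gene of the list (chromosome 14, 111461560 to 111478033), stood between 267 and 3669 FPKM (median 808) in back fat and between 0.639 and 3.25 FPKM (median 1.05) in LD muscle (log2 difference -9.29, SE 0.56, adjusted p = 3.29e-09). FASN, the fatty acid synthase (chromosome 12, 922405 to 937560), stood between 51 and 980.3 FPKM (median 234) in back fat and between 1.07 and 1.85 FPKM (median 1.53) in LD muscle (log2 difference -7.10, SE 0.62, adjusted p = 1.43e-07). Its levels in back fat were uneven, with 980.3, 333 and 581 FPKM in LBF and 65.1, 51 and 134 in HBF, all above every LD muscle library. THRSP, a regulator of lipogenic enzymes, stood between 96.5 and 348 FPKM (median 182) in back fat and between 0.152 and 1.61 FPKM (median 0.534) in LD muscle (log2 difference -8.15, SE 0.46, adjusted p = 1.78e-09). GPD1, which makes glycerol 3-phosphate for triglycerides and also serves the glycerol phosphate shuttle of muscle, was the adipocyte marker that was not called, with 177 to 719.6 FPKM (median 513) in LD muscle and 175 to 304 FPKM (median 225) in back fat (log2 difference 0.96, adjusted p = 0.00877). GPD1 was called higher in LD muscle under both other scalings, at 1.52 and 1.03. The genes called higher in LD muscle were MOGAT1, an acyltransferase, and PPP1R1A, an inhibitor of protein phosphatase 1, with log2 differences of 1.54 and 4.87, both named after their values were seen.

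Of 25 tested genes of lipid droplets and lipolysis, 20 were called higher in back fat and 2 in LD muscle, with a median of -2.88. PLIN1, the coat protein of the adipocyte lipid droplet (chromosome 7, 55237517 to 55250797), stood between 511 and 873 FPKM (median 612) in back fat and between 0.343 and 4.9 FPKM (median 2.21) in LD muscle (log2 difference -8.38, SE 0.47, adjusted p = 1.59e-09). CIDEC, which enlarges droplets by fusion, stood between 218 and 424 FPKM (median 362) in back fat and between 0.308 and 2.11 FPKM (median 0.97) in LD muscle (log2 difference -8.30, SE 0.37, adjusted p = 1.94e-10). FABP4, the fatty acid binding protein of adipocytes (chromosome 4, 55096400 to 55101209), was the most abundant nuclear gene with a symbol in back fat, between 3225 and 6425 FPKM (median 4834) in back fat and between 25.3 and 49.5 FPKM (median 41.4) in LD muscle (log2 difference -6.90, SE 0.19, adjusted p = 6.19e-12). LPL, which frees fatty acids from blood lipoproteins for both tissues, stood between 368 and 1124 FPKM (median 716) in back fat and between 21.6 and 136 FPKM (median 71.6) in LD muscle (log2 difference -3.52, SE 0.39, adjusted p = 1.71e-06), and LIPE, the hormone-sensitive lipase, between 503 and 899 FPKM (median 733) in back fat and between 12.7 and 52.3 FPKM (median 23.1) in LD muscle (log2 difference -4.95, SE 0.30, adjusted p = 3.56e-09). PLIN5, a droplet protein of oxidative tissues, overlapped, between 2.81 and 34 FPKM (median 8.25) in LD muscle and between 9.31 and 55 FPKM (median 12.1) in back fat (log2 difference -0.87, 0.30 in the low groups alone, adjusted p = 0.158). FITM1, a protein of the reticulum that helps to form droplets in muscle, and SLC27A1, a fatty acid transporter, were those called higher in LD muscle, with log2 differences of 6.71 and 1.22, and were named after their values were seen.

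Secreted factors of fat were called higher in back fat for 16 of 19 tested genes, from 24 listed, and higher in LD muscle for 1, with a median of -2.60. ADIPOQ, or adiponectin (chromosome 13, 124633906 to 124646237), stood between 1498 and 4071 FPKM (median 2220.3) in back fat and between 1.31 and 21.8 FPKM (median 7.41) in LD muscle (log2 difference -8.43, SE 0.51, adjusted p = 3.79e-09). APOE, an apolipoprotein made by adipocytes and macrophages, stood between 596 and 929 FPKM (median 700.0) in back fat and between 0.497 and 3.38 FPKM (median 1.48) in LD muscle (log2 difference -8.88, SE 0.35, adjusted p = 6.12e-11). LEP, or leptin, the satiety hormone of fat, stood between 33.9 and 114 FPKM (median 102) in back fat and between 0.031 and 0.453 FPKM (median 0.224) in LD muscle (log2 difference -8.12, SE 0.43, adjusted p = 9.37e-10). Every LD muscle library was below every back fat library for these genes. NAMPT, an enzyme of NAD synthesis that is also secreted, was the gene called higher in LD muscle, between 32 and 279 FPKM (median 64.9) in LD muscle and between 13.2 and 27 FPKM (median 15.4) in back fat (log2 difference 2.37, SE 0.47, adjusted p = 0.000361), and was named after its values were seen.

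Of 18 tested regulators of adipocyte identity, 11 were called higher in back fat and 1, DLK1, an inhibitor of adipocyte formation that was chosen after its values were seen, higher in LD muscle (log2 difference 1.13, with overlapping libraries). DLK1 was no longer called with a pseudocount of 1, in the low or the high groups alone, without HBF3 and LIMF1 together, or without any 1 of LBF1, LBF3, HBF1, HBF3, LIMF1, LIMF2, LIMF3 and HIMF1. The count higher in back fat was 9 after median-of-ratios scaling and 6 after quantile normalization, with list medians of -0.88 and -0.57. PPARG, the receptor that drives adipocyte genes (chromosome 13, 68301566 to 68433951), stood between 64.5 and 127 FPKM (median 120.1) in back fat and between 0.279 and 1.15 FPKM (median 0.685) in LD muscle (log2 difference -7.20, SE 0.26, adjusted p = 3.29e-11). CEBPA, its partner in mature adipocytes, stood between 76.4 and 182 FPKM (median 138) in back fat and between 0.241 and 1.13 FPKM (median 0.659) in LD muscle (log2 difference -7.50, SE 0.28, adjusted p = 4.56e-11). CEBPB, an early factor of adipocyte formation and of stress responses, overlapped, between 40.6 and 148 FPKM (median 108) in back fat and between 36.5 and 83.9 FPKM (median 45.4) in LD muscle (log2 difference -0.89, adjusted p = 0.0122).

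The 10 genes with a symbol and the largest differences toward back fat included 4 outside the lists. CYP4B1, a cytochrome P450 that hydroxylates fatty acids, led with 213 to 370.5 FPKM (median 289) in back fat and 0.0231 to 0.788 FPKM (median 0.228) in LD muscle (log2 difference -9.81, SE 0.40, adjusted p = 9.01e-11). SDR16C5, a retinol dehydrogenase, stood between 313 and 739 FPKM (median 496) in back fat and between 0.117 and 2.11 FPKM (median 0.814) in LD muscle (log2 difference -9.38, SE 0.56, adjusted p = 2.91e-09). S100A12, a calcium-binding protein of neutrophils and other phagocytes, stood between 93.2 and 310.4 FPKM (median 141) in back fat and at 0, 0.755 and 0.126 FPKM in LIMF 1 to 3 and 0, 1.16 and 0.689 FPKM in HIMF 1 to 3 (log2 difference -8.76, SE 0.62, adjusted p = 1.6e-08). UNC93A stood between 66.4 and 127 FPKM (median 81) in back fat and at 0.151, 0.209 and 0 FPKM in LIMF 1 to 3 and 0.34, 0.263 and 0.257 FPKM in HIMF 1 to 3 (log2 difference -8.28, SE 0.31, adjusted p = 4.74e-11).

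The connective tissue, vessel and immune cell genes were higher in back fat almost throughout. Of 41 tested matrix and fibroblast genes, 38 were called higher in back fat and 0 in LD muscle, with a median of -3.64. The count was 38 without LBF3 and 38 without HBF3 and LIMF1. POSTN, or periostin, a matrix protein that binds collagen (chromosome 11, 13225183 to 13258973), had the largest difference, between 60.5 and 271 FPKM (median 139.9) in back fat and between 0.0309 and 0.69 FPKM (median 0.101) in LD muscle (log2 difference -9.04, SE 0.45, adjusted p = 5.86e-10). The most abundant were SPARC, a collagen-binding glycoprotein, and COL3A1, a chain of the fibrillar collagens. SPARC stood between 1617 and 4010.0 FPKM (median 2282) in back fat and between 43.1 and 116 FPKM (median 99.6) in LD muscle (log2 difference -4.79, SE 0.29, adjusted p = 3.09e-09). COL3A1 stood between 736 and 3543 FPKM (median 1375) in back fat and between 14.1 and 60.4 FPKM (median 47.3) in LD muscle (log2 difference -5.39, SE 0.42, adjusted p = 4.8e-08), and COL1A1, another collagen chain, had a log2 difference of -5.71 (SE 0.43).

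Of 29 endothelial and vessel genes, 24 were called higher in back fat and 0 in LD muscle, with a median of -2.76, and after median-of-ratios scaling 22 and 3. PECAM1, an adhesion protein of endothelial cells, stood between 106 and 299 FPKM (median 195) in back fat and between 13.4 and 25.1 FPKM (median 17.3) in LD muscle (log2 difference -3.35, SE 0.24, adjusted p = 1.95e-08). CLDN5, a tight junction protein, stood between 16.6 and 103 FPKM (median 34.7) in back fat and between 0.99 and 3.96 FPKM (median 1.46) in LD muscle (log2 difference -4.28, SE 0.43, adjusted p = 5.05e-07), and DLL4, a Notch ligand of arteries and sprouting vessels, between 3.95 and 21.3 FPKM (median 10.7) in back fat and between 0.364 and 1.01 FPKM (median 0.481) in LD muscle (log2 difference -3.96, SE 0.40, adjusted p = 5.39e-07). The leukocyte list also holds genes that are not particular to leukocytes, such as CTSB, PSAP and CTSL. Of its 31 tested genes, 27 were called higher in back fat and 0 in LD muscle, with a median of -3.42. The largest differences were those of CTSL, a lysosomal protease, between 6.65 and 60.4 FPKM (median 19.7) in back fat and between 0.135 and 0.764 FPKM (median 0.335) in LD muscle (log2 difference -5.58, SE 0.51, adjusted p = 2.2e-07), and LCP1, an actin-bundling protein of leukocytes, between 4.87 and 43.1 FPKM (median 31.7) in back fat and between 0.458 and 1.61 FPKM (median 0.841) in LD muscle (log2 difference -4.57, SE 0.50, adjusted p = 1.23e-06). CD74, the invariant chain of antigen presentation, differed less, between 353 and 586 FPKM (median 485) in back fat and between 77.8 and 130.3 FPKM (median 116) in LD muscle (log2 difference -2.12, SE 0.17, adjusted p = 7.29e-08). All 7 macrophage markers were called higher in back fat under each of the 3 scalings, whereas the 3 of 5 lymphocyte markers called with the values as deposited fell to 0 under both other scalings.

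Many enzymes exist in a form used by muscle and another used elsewhere, and the log2 ratio of the forms was taken within each library. Multiplying a library by 1 factor leaves this ratio unchanged, apart from the pseudocount, whereas quantile normalization can change it, and the ratios were computed with the values as deposited only. Of 27 pairs listed, 24 had both genes in the table, and 22 of these had no value at 0 in LD muscle. In 21 of the 22 pairs the ratio was higher in every LD muscle library than in every back fat library. CA3 over CA2 was the pair that overlapped. In 19 pairs the muscle form led in all 6 LD muscle libraries, and in 11 of these the other form also led in all 6 back fat libraries. Near-identical copies can share reads that the estimate may split, and this was not tested.

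Several enzymes of glycolysis exchanged forms. The log2 ratio of PGAM2 to PGAM1, both phosphoglycerate mutases, was -8.81 to -4.74 in back fat and 5.18 to 6.96 in LD muscle. For the enolases ENO3 and ENO1 it was -7.53 to -3.28 in back fat and 6.21 to 7.71 in LD muscle, LBF3 being the highest back fat library for both pairs. The forms moved in opposite directions, ENO1 itself standing between 151 and 280.4 FPKM (median 204) in back fat and between 17.8 and 31.2 FPKM (median 22.9) in LD muscle (log2 difference -3.09, SE 0.16, adjusted p = 9.82e-10), and PGAM1 between 90.0 and 134 FPKM (median 112) in back fat and between 7.92 and 11.5 FPKM (median 10.6) in LD muscle (log2 difference -3.39, SE 0.13, adjusted p = 5.3e-11). For the phosphofructokinases PFKM over PFKL, the latter named for liver, the ratio was -2.39 to -1.13 in back fat and 6.56 to 9.04 in LD muscle. For LDHA over LDHB it was -0.42 to 4.71 in back fat and 5.84 to 9.89 in LD muscle, with LBF3 the highest back fat library. LDHB, which favours the use of lactate, stood at 3.57 FPKM in LBF3 and at 56 to 90.6 FPKM in the other 5 back fat libraries, and without LBF3 its log2 difference moved from -2.32 to -3.05. PYGM over PYGL, the liver form of glycogen phosphorylase, was near equality in back fat, with -0.71 to 0.29, and 8.88 to 10.17 in LD muscle. FBP1 and FBP2, which run the pathway backward at the fructose bisphosphate step, showed no change of lead, the muscle form leading in both tissues with a ratio of 1.07 to 3.62 in back fat and 4.15 to 11.28 in LD muscle.

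Among pairs of structural proteins, ACTA1 over ACTB, the actins of skeletal muscle and of most other cells, had log2 ratios that overlapped between the tissues, from -13.16 to -1.99 in back fat and from -10.33 to 7.35 in LD muscle, where ACTA1 was listed at 0 in 4 libraries. For the actinins that anchor actin at the Z-disc or at adhesions, ACTN2 over ACTN1, the log2 ratio was -7.11 to -2.29 in back fat and 6.53 to 9.65 in LD muscle, and for TPM2 over TPM4 it was -2.74 to -0.95 in back fat and 7.54 to 9.27 in LD muscle. ACTN1 stood between 17.4 and 50.4 FPKM (median 27.5) in back fat and between 0.809 and 4.17 FPKM (median 2.56) in LD muscle (log2 difference -3.62, SE 0.37, adjusted p = 6.52e-07), and TPM4 between 128 and 225 FPKM (median 178) in back fat and between 7.94 and 26.5 FPKM (median 15.3) in LD muscle (log2 difference -3.54, SE 0.24, adjusted p = 9.84e-09).

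In mitochondria, COX6A2 over COX6A1, the muscle and the general form of a subunit of complex IV, had a log2 ratio of -3.50 to -2.73 in back fat and 3.12 to 4.71 in LD muscle. COX6A2 stood between 118 and 356 FPKM (median 151) in LD muscle and between 3.51 and 6.01 FPKM (median 4.93) in back fat (log2 difference 5.09, SE 0.23, adjusted p = 2.25e-10), and COX6A1 between 36.4 and 48.7 FPKM (median 41.7) in back fat and between 11.8 and 14.4 FPKM (median 13) in LD muscle (log2 difference -1.69, SE 0.1, adjusted p = 2.9e-09). COX7A1 over COX7A2 moved the same way without the muscle form taking the lead, -3.98 to -3.09 in back fat and -1.51 to -0.30 in LD muscle. For SLC25A4 over SLC25A5, carriers that exchange ADP for ATP, it was -0.37 to 0.45 in back fat and 7.63 to 8.86 in LD muscle, and for CPT1B over CPT1A, which bring fatty acids into mitochondria, -1.83 to -0.69 in back fat and 3.21 to 5.61 in LD muscle. FABP3 over FABP4 changed lead, -5.20 to -2.75 in back fat and 0.077 to 4.23 in LD muscle, while FABP3 itself was not called.

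**Figure D4:**
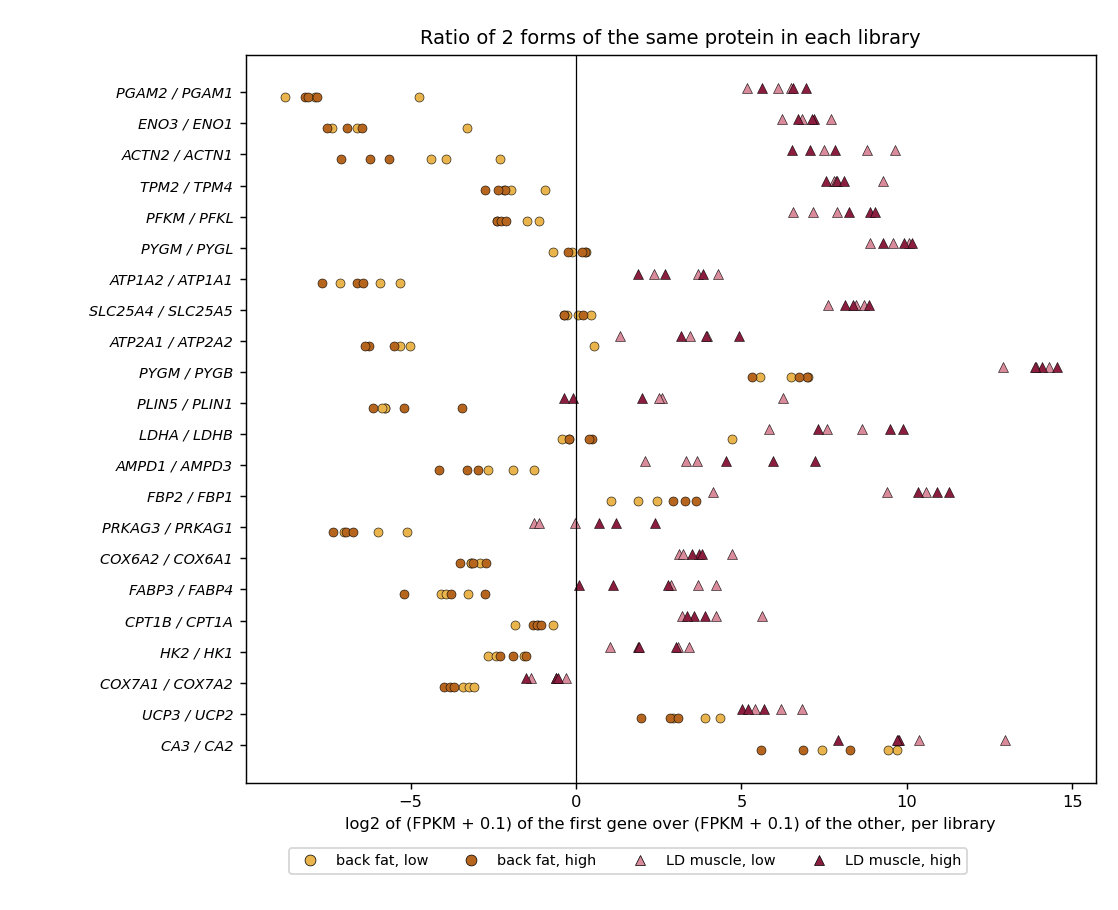
Log2 ratio of the muscle form to the other form of the same protein, (FPKM + 0.1) over (FPKM + 0.1), in each back fat library (circles) and LD muscle library (triangles), for the 22 pairs without a value at 0 in LD muscle. In all pairs but CA3 over CA2 every triangle lies to the right of every circle, and for PGAM2 over PGAM1 the ranges are -8.81 to -4.74 in back fat and 5.18 to 6.96 in LD muscle.

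The translation machinery had an exchange of its own. Of 44 cytosolic ribosomal protein genes found, from 75 listed, 21 were called higher in back fat and 0 in LD muscle with the values as deposited, 5 and 0 after median-of-ratios scaling, and 24 and 0 after quantile normalization. Their median was -0.98 beside -0.97 for all genes as deposited, -0.42 beside -0.54 after median-of-ratios scaling and -1.09 beside -0.06 after quantile normalization. As deposited, 39 of the 44 had every back fat library above every LD muscle library, against 49.3% of all genes. RPL3, a protein of the large subunit near the peptidyl transferase centre (chromosome 5, 8922697 to 8929768), stood apart within the list, between 467 and 688 FPKM (median 496) in back fat and between 29.5 and 68.4 FPKM (median 49.1) in LD muscle (log2 difference -3.48, SE 0.18, adjusted p = 8.76e-10). Its paralog RPL3L (chromosome 3, 40004907 to 40016702), chosen after its values were seen, stood between 153 and 259.7 FPKM (median 172) in LD muscle and between 0.0514 and 1.4 FPKM (median 0.149) in back fat (log2 difference 9.26, SE 0.43, adjusted p = 2.95e-10). RPL3L was above RPL3 in all 6 LD muscle libraries and below it in all 6 back fat libraries. RPLP1, of the ribosomal stalk, overlapped, between 3620.0 and 4611 FPKM (median 4263) in back fat and between 2964 and 4672 FPKM (median 3658) in LD muscle (log2 difference -0.16, 0.40 after median-of-ratios scaling, adjusted p = 0.474), while its partner RPLP2 was called higher in back fat (log2 difference -2.14, SE 0.23, adjusted p = 1.15e-06). EEF1A2, the elongation factor form of muscle and neurons, stood between 1787 and 2349 FPKM (median 2081) in LD muscle and between 0.0677 and 8.24 FPKM (median 0.267) in back fat (log2 difference 11.58, SE 0.74, adjusted p = 5.99e-09).

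Signalling genes of insulin and of AMPK, the kinase that senses low energy, had no common direction. Of 25 genes, 6 were called higher in LD muscle and 6 in back fat, and the median of -0.45 became 0.11 after median-of-ratios scaling and 0.18 after quantile normalization. The largest differences were those of 2 subunits of the AMPK form of muscle. PRKAG3, the gamma 3 subunit, stood between 7.88 and 54.4 FPKM (median 23.2) in LD muscle and between 0.0285 and 0.585 FPKM (median 0.0797) in back fat (log2 difference 6.49, SE 0.50, adjusted p = 3.66e-08), and PRKAA2, the alpha 2 catalytic subunit, between 29.6 and 41.4 FPKM (median 32.1) in LD muscle and between 0.0713 and 0.499 FPKM (median 0.375) in back fat (log2 difference 6.35, SE 0.26, adjusted p = 8.13e-11). AKT2, a kinase that carries the insulin signal to glucose transport, was higher in back fat, between 104 and 201 FPKM (median 172) in back fat and between 28 and 39.4 FPKM (median 32.8) in LD muscle (log2 difference -2.28, SE 0.15, adjusted p = 1.03e-08). Of 19 genes of branched-chain amino acid breakdown, 6 were called higher in back fat and 2 in LD muscle, with a median of -0.74. After median-of-ratios scaling these were 3 and 2, with a median of -0.19, and after quantile normalization 4 and 2, with a median of -0.13 beside -0.06 for all genes.

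HOX genes, which keep a record of position along the body axis in cells of the adult, were counted by cluster, and the clusters were not tested against each other. Of 28 tested, 14 (50%) were called higher in back fat, against 47% of all genes, and 2 in LD muscle, and after quantile normalization 9 and 7. All 7 tested HOXB genes were called higher in back fat, with a median of -2.95, against 4 of 8 HOXA genes, 1 of 7 HOXC genes and 2 of 6 HOXD genes. After quantile normalization 6 of 7 HOXB genes were called higher in back fat. By paralog group, 11 of 13 genes of groups 1 to 5 were called higher in back fat and 0 of 8 genes of groups 9 to 13, and after quantile normalization 6 and 0. HOXB6 stood between 4.58 and 8.09 FPKM (median 7.36) in back fat and between 0.178 and 0.57 FPKM (median 0.286) in LD muscle (log2 difference -4.09, SE 0.23, adjusted p = 1.69e-09), and HOXA5 between 16.5 and 36.9 FPKM (median 21.4) in back fat and between 1.22 and 3.28 FPKM (median 1.75) in LD muscle (log2 difference -3.47, SE 0.25, adjusted p = 1.69e-08). HOXC10, of a more posterior group (chromosome 5, 19197810 to 19202975), was called higher in LD muscle, between 2.69 and 27.6 FPKM (median 22.8) in LD muscle and between 0.231 and 1.95 FPKM (median 1.39) in back fat (log2 difference 3.96, SE 0.62, adjusted p = 4.75e-05). HOXC10 and HOXA9 were lowest in HIMF2 among the LD muscle libraries, at 2.69 and 0.218 FPKM, against at least 11.9 and 9.08 in the others. HOXA9 was not called (log2 difference -0.45, 0.096 after median-of-ratios scaling and 0.27 after quantile normalization).

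Few genes of the circadian clock were called. Of 17 tested, 1 was called higher in LD muscle and 2 higher in back fat, and after median-of-ratios scaling, after quantile normalization or in the high groups alone 4 and 2. RORA, a nuclear receptor that activates BMAL1, stood between 4.81 and 11 FPKM (median 6.12) in LD muscle and between 0.689 and 1.09 FPKM (median 0.818) in back fat (log2 difference 2.81, SE 0.20, adjusted p = 1.74e-08), and NPAS2, a partner of BMAL1, between 1.24 and 3.94 FPKM (median 2.29) in back fat and between 0.15 and 0.469 FPKM (median 0.249) in LD muscle (log2 difference -2.71, SE 0.29, adjusted p = 9.55e-07). PER1, a repressor of the loop, overlapped, between 29.8 and 53.6 FPKM (median 40.8) in back fat and between 17.3 and 54.6 FPKM (median 39.4) in LD muscle (log2 difference -0.21, 0.35 after median-of-ratios scaling). The time of day at sampling is not given in the sources used here.

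Genes often used as references for comparing RNA levels were not level across these tissues. Of 14 found, 2 were called higher in LD muscle and 5 in back fat. ACTB, the cytoplasmic actin, stood between 346 and 1381 FPKM (median 688) in back fat and between 58.8 and 129 FPKM (median 71.2) in LD muscle (log2 difference -3.07, SE 0.35, adjusted p = 2.13e-06). YWHAZ, a 14-3-3 protein, stood between 131 and 191 FPKM (median 168) in back fat and between 7.96 and 18.1 FPKM (median 13.1) in LD muscle (log2 difference -3.65, SE 0.19, adjusted p = 9.74e-10). Over all 12 libraries the highest value exceeded the lowest 23.4-fold for ACTB, 23.7-fold for YWHAZ and 11.7-fold for PGK1, on FPKM + 0.1. GAPDH had its value of 0 in LIMF2 beside the highest levels of the list.

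The libraries of a tissue also differed among themselves, and the LD muscle libraries did so in the forms of slow and fast fibres. In LIMF3 the ratio of the slow to the fast form was the highest of the 6 LD muscle libraries for each of 5 proteins compared, and in HIMF2 the lowest. Of these 5, 3 were chosen by the rule for named genes and the other 2 after their values were seen. The ratio of TNNI1 to TNNI2 FPKM was 0.798 in LIMF3, 0.0706 in HIMF2 and 0.115 to 0.185 in the other 4. The ratio of TNNC1 to TNNC2, chosen after their values were seen like TNNT1 to TNNT3, was 2.63 in LIMF3, 0.343 in HIMF2 and 0.444 to 0.867 in the others. For MYL2 over MYL11 it was 0.992 in LIMF3 and 0.0729 in HIMF2, and for ATP2A2 over ATP2A1 0.399 and 0.0331. LIMF3 was also the highest LD muscle library for 43 of 60 nuclear genes of oxidative phosphorylation, 24 of 33 of fatty acid oxidation and 14 of 26 of the citric acid cycle. It was also the highest for 22% of all genes tested, for 15 of 29 genes of endothelium and vessels, 13 of 31 of leukocytes and 10 of 19 of branched-chain amino acid breakdown. Without LIMF3, 1 library in 6 of its tissue, the calls numbered 1445 higher in LD muscle and 7499 higher in back fat.

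**Figure D5:**
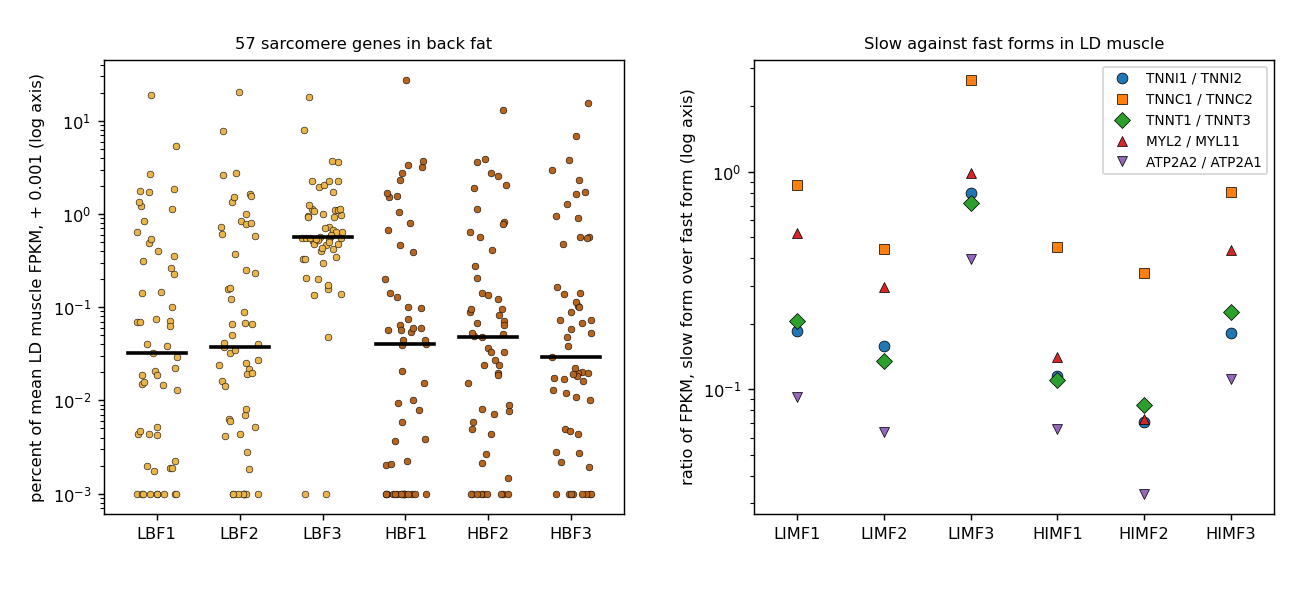
Left, level of the 57 sarcomere genes found in each back fat library as percent of their mean FPKM in LD muscle (log axis, a small constant added so that zeros show, bars for medians). Right, ratio of FPKM of the slow form to the fast form of 5 proteins in each LD muscle library (log axis), where LIMF3 has the highest ratio for each protein, 0.399 to 2.63, as LBF3 has the highest median on the left, 0.561%.

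The difference between the tissues was also taken in the low and the high groups alone. LIMF against LBF gave 1212 genes higher in LD muscle and 5927 higher in back fat, and HIMF against HBF gave 1461 and 7102, with 3 libraries against 3. Whether the difference between the tissues itself changed from the low to the high groups was tested as an interaction. Low and high refer to backfat thickness in back fat and to intramuscular fat in LD muscle, so the interaction does not follow a single trait. In limma 0 of 15965 genes passed an adjusted p under 0.05, with 1628 at an unadjusted p under 0.05 and a smallest adjusted p of 0.0748. Without LIMF3 the interaction was called for 108 genes, and without any other library for at most 4.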

How the data were processed

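RNA of LD muscle and back fat was sequenced by the study, 6 libraries for each tissue. The authors deposited FPKM for 31903 Ensembl gene identifiers of the pig. The submitters' processing notes name HISAT2, Cufflinks 2.2.1 and DESeq2 1.25.9, the last of which was not used here because it needs counts. Strand handling is not given in the sources used here. FPKM depend on the other genes of a library, so a few very abundant genes lower the values of the rest, and the absolute depth is unknown, so no counting intervals are given. Relative depth was sought from the steps between values under 0.05 FPKM. In LBF2, HBF2 and HBF3, 136 to 227 genes shared a step, which gave depths of 0.946 to 1.10 times that of LBF1. In the other 8 libraries at most 65 genes did, with depths of 0.826 to 1.40 that are less certain.

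All sample columns were used and mapped to samples by name. Symbols came from a table of gene names (15025 identifiers with a symbol), and positions from the RefSeq annotation of Sscrofa11.1, matched by symbol. Genes with a mean above 0.05 FPKM were tested on log2(FPKM + 0.1) with limma 3.58.1 (trend, Benjamini-Hochberg) in R 4.3.3, with tissue as the only term. On simulated data with 200 shifted genes among 15965, calls recovered 31 at a true log2 shift of 1, the limit itself, and 168 at a shift of 2. The simulated noise was normal and independent between genes. In the data 56.2% of genes were called, a far larger share, on which the adjusted p depends. The simulation therefore does not give the sensitivity of the comparison itself. Alternatives covered pseudocount, filter, scaling, variance model, replicate block, level, limits and each library left out. Zeros of abundant genes as missing and the libraries with EIF1AY left out were added after seeing the data, as was the use of any alternative on the counts over lists and pairs. Named were, in each list, the 3 members with the highest mean and the 2 called members with the largest difference, both forms of each pair, the 10 genes with the largest difference in each direction, and cell type markers. Genes outside this rule that were chosen after their values were seen are TNNC1, TNNT1, COX1, ATP6, MYL10, EIF1AY, PGK1, RPL3L, IDH2, DLK1, NAMPT, FITM1, SLC27A1, PPP1R1A, MOGAT1, COX8A and those given last, under other observations. A result on 1 gene is not reported here. The members and lists were chosen with earlier results of these data known.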

Additional observations from a re-analysis of the deposited data

Results flagged for a closer look

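For each of 134 genes followed through the alternatives, the lowest and the highest library of a tissue were compared with the nearest of the other 5, and a library was marked where that gap exceeded the critical value of Dixon's test as a part of the range of the tissue. Of 268 sets of a gene and a tissue, 45 were marked. The limit marks about 1 in 20 sets of independent, normally distributed values. These genes vary together, some were chosen after their values were seen, and some sets hold libraries tied at 0. The count of marks was therefore not compared with chance. LBF3 accounted for 24 of them in back fat, with FPKM of MYL11 (111), MYL1 (43.4), TNNT3 (35), MYOZ1 (8.15), ATP2A1 (13.7), SLN (9.51), TNNI2 (43.2), TNNC2 (27.1), TNNI1 (2.75), TNNT1 (4.4), ACTA1 (107), MYF6 (0.218), MYF5 (0.0221), PGAM2 (4.04), ENO3 (20.8), ALDOA (52.2), LDHB (3.57), CKM (47.7), CKMT2 (2.6), AMPD1 (0.735), RPL3L (1.4), XIRP1 (0.0744), MYOG (0.0373) and SLC27A1 (8.18). LBF3 was the highest back fat library in these sets except for LDHB, in which it was the lowest.

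The other marks fell on 8 libraries. In back fat, HBF1 stood apart for PLIN5 (55), PPARG (64.5), PRKAA2 (0.0713) and RPL3 (688) FPKM, LBF1 for PYGM (44.2) and HOXD8 (28.5), LBF2 for HOXB6 (4.58) and NAMPT (27), and HBF2 for CSRP3 (0.0319). In LD muscle, LIMF3 stood apart for PYGM (1887), COX6A2 (356), HOXD8 (10.2) and RPLP2 (1579.9) FPKM, LIMF1 for PPARGC1A (32) and FABP4 (25.3), LIMF2 for GAPDH (0), ALDOA (0) and FBP1 (6.53), and HIMF2 for PGAM1 (7.92), HOXC10 (2.69) and HOXA9 (0.218). The difference between the tissues was not found to change from the low to the high groups for any gene at an adjusted p under 0.05 in limma, with 1628 genes at an unadjusted p under 0.05.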

How the results depend on the processing

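The number of genes higher in LD muscle was 2285 after median-of-ratios scaling, 3184 after quantile normalization, 2438 at an adjusted p under 0.05 with no limit on the difference and 761 with a log2 difference of at least 2. The number higher in back fat was 4704 with a pseudocount of 1, 3562 after quantile normalization and 3812 with a log2 difference of at least 2. With each library left out in turn these were 1425 to 1506 and 7353 to 7536. The interaction with the low and high groups gave 1 gene with a pseudocount of 1, 1 with a pseudocount of 0.01, and 0 to 108 with 1 library left out, the 108 without LIMF3. The causes were not tested.

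Of 134 genes followed, 114 were called, and of these 102 stayed called under each of up to 29 alternatives and 0 reversed. Of the 20 not called, 12 changed sign. After median-of-ratios scaling the log2 difference was 0.22 for COX3, 0.096 for HOXA9, 0.35 for PER1 and 0.40 for RPLP1. After quantile normalization it was -0.14 for COX2, 0.0093 for COX3, 0.27 for HOXA9 and 0.11 for PER1. In the low groups alone it was -4.49 for ACTA1, -2.11 for GAPDH, -0.12 for COX2, 0.53 for FABP3 and 0.30 for PLIN5. In the high groups alone it was -0.16 for HK2, 0.035 for COX3, -0.21 for UCP3 and 0.23 for PER1. With zeros taken as missing COX1 was at 0.60, and without HBF3 and LIMF1 COX3 was at 0.0055, both alternatives chosen after seeing the data. With each library left out, COX2 ranged from -0.039 to 0.26, lowest without LIMF2, COX3 from -2.63 to 2.24, and HOXA9 from -0.82 to 0.50, highest without HIMF2. The circadian clock list had more members higher in LD muscle than in back fat under both scalings, in the high groups alone, without LBF3, and without HBF3 and LIMF1, and the list of epidermis, nerve and blood genes did after quantile normalization.

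Which same-numbered libraries of both tissues share a pig, if any, is not given in the sources used here. The study reports different mean body weight and backfat for HBF and HIMF, and for LBF and LIMF. The groups of a level are therefore not the same set of pigs, and not all same-numbered libraries can be pairs. The correlations of their deviations from the group means were 0.126, 0.244 and 0.0557 in the low groups and -0.0469, -0.0543 and -0.0383 in the high groups, and the numbers were not used as pairs. EIF1AY stood at 16.9 FPKM in HBF3 and at 0 in HIMF3, and at 26.9 FPKM in LIMF1 and at 0 in LBF1, so these same-numbered libraries differ in a Y-linked gene. With the replicate number as a block, 1466 and 7487 genes were called, and with the number within each level as the block, 1469 and 7496. FPKM give no absolute depth, which limits what can be said of genes listed at 0. A search of promoters for motifs was not run, as no promoter sequences were used here.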

Other observations

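Genes above 1 FPKM in every library of a tissue and below 0.1 FPKM in every library of the other tissue numbered 36 in back fat, 26 of them with a symbol, and 58 in LD muscle, 43 with a symbol. Without LBF3 the number in LD muscle was 101, 75 with a symbol. The genes given here were chosen after their values were seen. In back fat, FGF10, a growth factor secreted by mesenchymal cells, stood at 8.68 to 22.5 FPKM and at most 0.0806 FPKM in LD muscle. TWIST2, a transcription factor of mesenchymal cells, stood at 7.28 to 20.7 FPKM in back fat and at most 0.0464 in LD muscle, and ADRB1, the beta 1 adrenergic receptor, at 4.3 to 10.5 FPKM and at most 0.0604.

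In LD muscle, XIRP1, an actin-binding protein of muscle junctions, stood at 26.8 to 481 FPKM and at most 0.0744 FPKM in back fat, in LBF3. MYOG, a factor of muscle differentiation, stood at 13 to 28.3 FPKM, and in back fat at 0.0373 FPKM in LBF3 and listed at 0 in the other 5 libraries. NOS1, the neuronal nitric oxide synthase that muscle fibres hold at their membrane, stood at 2.19 to 13.3 FPKM and at most 0.032 in back fat. CSRP3, a protein of the Z-disc, stood at 3.84 to 171 FPKM in LD muscle and at most 0.0319 in back fat. Among the muscle genes given here it varied most as a fold, and XIRP1 most in FPKM.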
